A study of Mus musculus with 19 samples.

Results

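Wnt and Fgf genes encode the ligands of a pair of signalling pathways that pattern the embryo. Secreted Wnt proteins bind Frizzled receptors with Lrp5 or Lrp6, and most secreted Fgf proteins bind receptor tyrosine kinases. Their genes were examined here for 3 histone marks in mouse embryonic stem cells (ESCs) with and without Dnmt1, the enzyme that copies DNA methylation to the new strand at replication. The members were the 39 autosomal Wnt and Fgf genes, 19 Wnt and 20 Fgf, of 22650 autosomal protein-coding and lincRNA genes. They were chosen by name and not by a cut on any measured value, though earlier results of these data were known. Each gene was read over every 2 kb tile touching the stretch from 2 kb upstream of its start to its end in the NCBIM37 annotation. The members took 1113 of 1327469 tiles, between 3 tiles at Fgf21 and 352 at Fgf14.

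Cells were sampled after 4 and 8 days as control (genotype given as Wildtype) and as DNMT1KO (genotype given as Dnmt1 KO), and both arms derive from Dnmt1 loxP/loxP ESCs grown in serum with LIF on gelatin, in which Cre is switched on by tamoxifen. The labels give the background strain as E14, and the study's methods give C57BL/6. H3K27me3, H3K9me2 and H3K9me3 were each profiled by ChIP-seq in 1 control and 1 DNMT1KO library at day 4 and in 2 of each at day 8, with a single input library from control cells, 19 libraries in all. Nothing says that same-group libraries came from separate cultures, so the p-values measure the spread between these libraries, which may be technical. The fit moderates that spread toward genes of similar level.

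H3K27me3 is set by Polycomb repressive complex 2 and marks CpG-rich starts of silent developmental genes in ESCs, whereas H3K9me2 and H3K9me3 mark other kinds of repressed chromatin. Fgf4 is known as the ligand that ESCs themselves make, Fgf5 and Fgf8 as ligands of the later epiblast and gastrula, and most Wnt genes as silent until germ layers form. RNA was not measured in these libraries, so a gene is called expressed or silent here only as background.

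The 3 stretches of 250 bases directly before the annotated start show the range of sequence that these genes carry, with every CG dinucleotide in capitals, read 5′ to 3′ along the gene from NCBIM37. Wnt1 (chr15:98620038-98620287 on the plus strand) had the highest H3K27me3 of the 39 genes. Fgf4 (chr7:152047041-152047290 on the plus strand) was as rich in CG but carried little of the mark, and Fgf7 (chr2:125860144-125860393 on the plus strand) was poor in CG and had the lowest level.
Wnt1: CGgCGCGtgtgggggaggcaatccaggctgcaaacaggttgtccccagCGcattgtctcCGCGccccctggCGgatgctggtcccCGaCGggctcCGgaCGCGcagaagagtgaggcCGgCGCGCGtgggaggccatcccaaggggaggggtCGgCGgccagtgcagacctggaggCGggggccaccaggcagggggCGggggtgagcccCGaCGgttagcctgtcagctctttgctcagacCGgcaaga
Fgf4: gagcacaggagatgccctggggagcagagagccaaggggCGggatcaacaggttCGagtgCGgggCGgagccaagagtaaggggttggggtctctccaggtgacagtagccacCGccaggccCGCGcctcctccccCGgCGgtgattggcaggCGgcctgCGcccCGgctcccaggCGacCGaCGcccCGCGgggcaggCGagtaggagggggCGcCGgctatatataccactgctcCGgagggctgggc
Fgf7: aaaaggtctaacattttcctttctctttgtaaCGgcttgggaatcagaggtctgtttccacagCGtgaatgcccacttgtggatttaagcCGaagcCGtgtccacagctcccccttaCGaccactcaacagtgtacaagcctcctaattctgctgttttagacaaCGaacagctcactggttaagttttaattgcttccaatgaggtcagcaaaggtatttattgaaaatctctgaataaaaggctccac
None of the 3 stretches overlapped an annotated exon. Wnt1 held 23 CG, Fgf4 21 and Fgf7 6, against a median of 16 over the 39 members and of 9 over 22645 genes, of which 92.8% held at least 1.

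Depth and identity were checked before the marks were compared. The ChIP libraries held 14627174 to 26181489 reads, other than 5669098 in the first H3K9me3 DNMT1KO library of day 8. A tile inside Dnmt1 held 7 to 11 reads in the 6 day 8 controls and 0 to 1 in the 6 day 8 DNMT1KO libraries, while at day 4 it held 6 to 9 and 2 to 4 reads. A median of 968 reads per library fell on a member's window for H3K27me3, 157 for H3K9me2 and 125 for H3K9me3. Of 10 pluripotency genes listed, 9 were found, with control H3K27me3 levels from -2.79 at Dppa5a to 1.81 at Klf4, and 6 fibroblast genes ranged from -0.27 to 2.44. All levels are reads per tile on a log2 scale relative to the average tile of the same library, so that 0 is the genome average and values can be set side by side between genes of different length.

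In control ESCs the ligand genes were, with few exceptions, H3K27me3 genes. Their median level was 2.08 over the gene window against -0.09 over 22110 genes, and 27 of 39 lay above the 90th percentile of all genes. H3K27me3 was higher than H3K9me3 in 37 of 39 members and lower in 1 (limma, adjusted p under 0.05), where 43.5% of all genes were called higher and 23.4% lower. Against H3K9me2 it was higher in 35 and lower in 1, where 45.5% of all genes were called higher and 25.4% lower. Over all genes the median difference was 0.19 against H3K9me3 and 0.26 against H3K9me2, far below those of the strongly marked members. The marks were read with different antibodies, so a difference between marks compares how far a gene stood from the genome average of each library and not amounts of the marks.

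**Figure D1:**
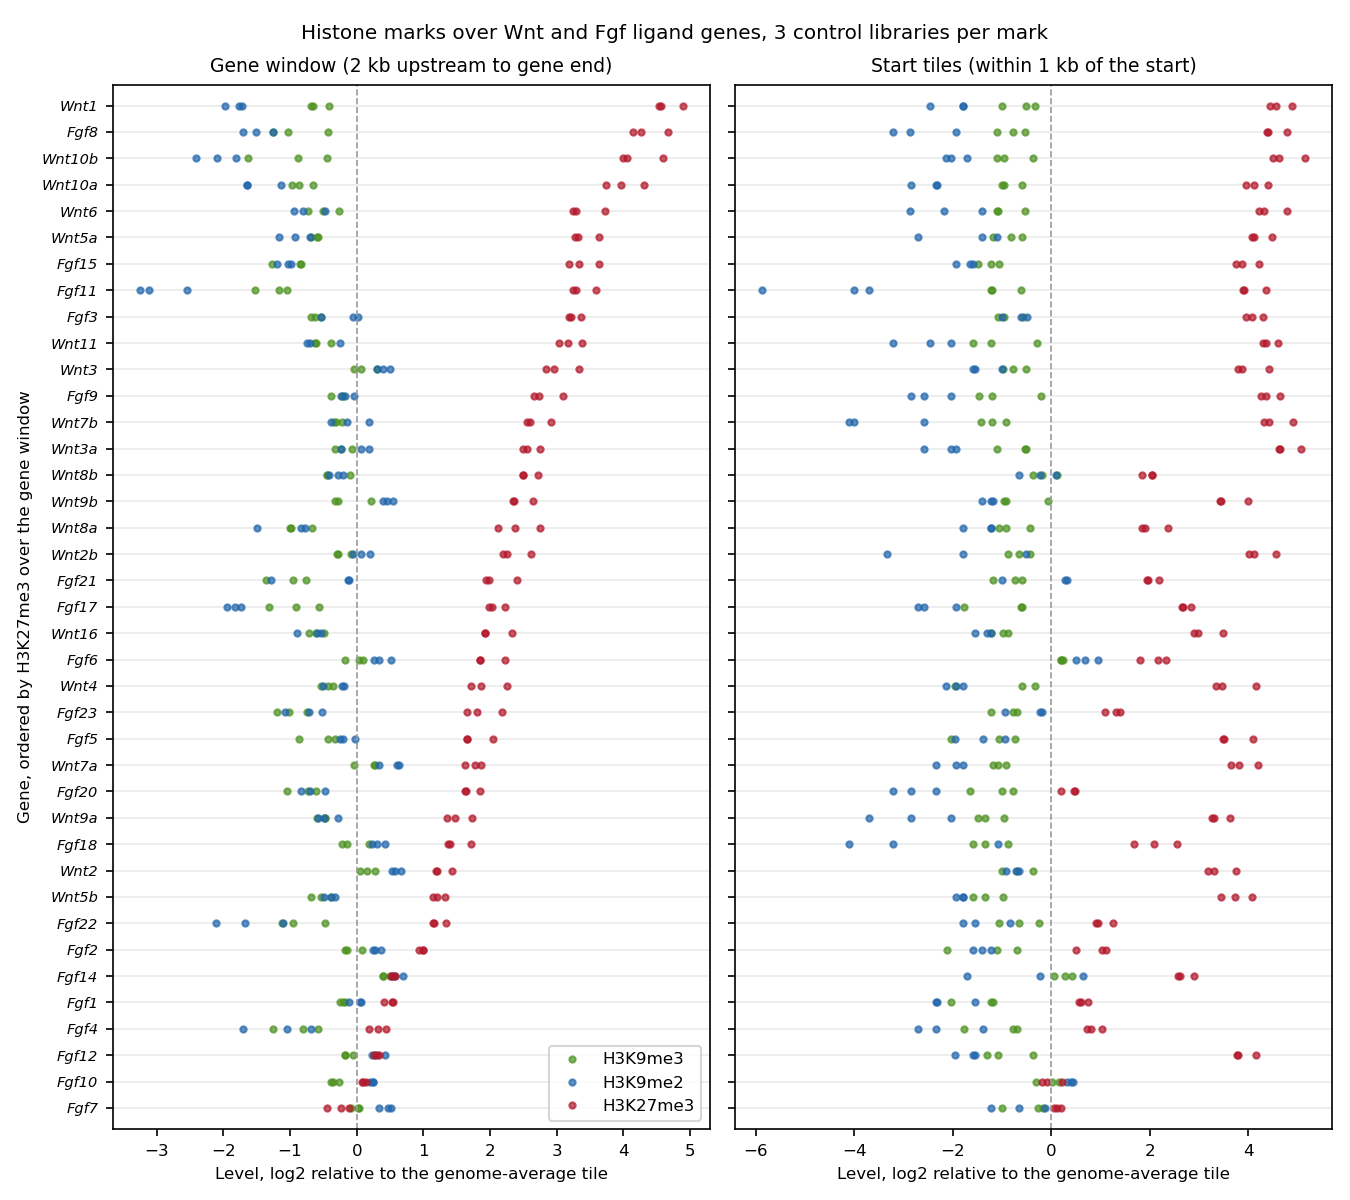
Level of each mark at the 39 genes in the 3 control libraries per mark (day 4 and both day 8 replicates), as log2 relative to the genome-average tile, over the gene window (left) and the tiles within 1 kb of the start (right). Over the gene window H3K27me3 runs from 4.66 at Wnt1 to -0.27 at Fgf7, and at the start Fgf12 and Fgf14 join the marked genes at 3.91 and 2.70.

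The strongest H3K27me3 lay on Wnt1, Fgf8 and Wnt10b. Wnt1, the midbrain organiser ligand, reached 4.54 at day 4 and 4.89 and 4.56 in the day 8 controls (4.66 ± 0.20, SD, n = 3). Fgf8, a ligand of gastrulation and of several organisers, gave 4.27, 4.67 and 4.15 in the same order, and Wnt10b, a ligand of bone and mammary gland, had a mean of 4.21. Their ranges over libraries overlapped, as did those of 33 of 38 neighbouring pairs in the ranking of all members, while each of the 3 control libraries gave the order Wnt1, Fgf8, Wnt10b. All 3 were far above the genome average in every control library. H3K27me3 exceeded H3K9me3 by 5.25 ± 0.12 (SE) at Wnt1 (limma adjusted p = 2.14e-08), by 5.27 ± 0.22 at Fgf8 (adjusted p = 8.93e-08) and by 5.20 ± 0.29 at Wnt10b (adjusted p = 4.4e-07).

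The Wnt family was more evenly marked than the Fgf family. All 19 Wnt genes lay between 1.23 at Wnt5b and 4.66 at Wnt1, with a median of 2.57, whereas the 20 Fgf genes ran from -0.27 to 4.37 with a median of 1.75. Near the start, 18 of 19 Wnt genes and 12 of 20 Fgf genes stood more than 4-fold above the genome average. Wnt8b was the Wnt gene under that line, at 1.98.

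At the low end stood ligands of several kinds. Fgf7 and Fgf10, which mesenchyme secretes to epithelium, had control means of -0.27 ± 0.17 and 0.11 ± 0.03 (SD, n = 3). Fgf12 at 0.31 ± 0.04 and Fgf14 at 0.54 ± 0.03 are intracellular members that do not act as secreted ligands, and both genes are long. Within 1 kb of their starts the level was 3.91 at Fgf12 and 2.70 at Fgf14, so their low value over the window came with a marked start and an unmarked body. Fgf7 and Fgf10 stayed low at the start, at 0.13 and -0.01, with 29 and 12 CpG sites per start tile.

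Fgf7 was the member called lower for H3K27me3 than for both other marks over the window, by -0.26 ± 0.10 against H3K9me3 (limma adjusted p = 0.0495) and by -0.70 ± 0.10 against H3K9me2 (adjusted p = 0.000229). The first of these calls was lost when any of the control replicates was left out (-0.37 to -0.15), and in the start tiles both differences turned positive, at 0.61 and 0.80. The H3K27me3 levels of Fgf10, Fgf12 and Fgf14 did not pass the test against H3K9me2, with differences of -0.12 ± 0.08, 0.00 ± 0.09 and -0.06 ± 0.08, and Fgf14 did not pass against H3K9me3 either (0.12 ± 0.08, adjusted p = 0.215). In the start tiles Fgf12 and Fgf14 exceeded H3K9me2 by 5.60 and 3.13.

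Fgf4, the ligand that ESCs make, stood apart from its direct neighbours. It lies on chromosome 7 from 152047291 to 152051148 on the plus strand, with Fgf3, an inner ear and tail ligand, starting 23303 bp before it and Fgf15, a gut hormone of bile acid control, starting 35146 bp after it, and the windows share no tile. The annotated gene Gm17685 overlaps the Fgf15 window. H3K27me3 at Fgf4 was 0.44 at day 4 and 0.19 and 0.32 in the day 8 controls. Fgf3 gave 3.22, 3.37 and 3.18 and Fgf15 gave 3.33, 3.64 and 3.19 in the same libraries. Each neighbour exceeded Fgf4 by 2.79 to 3.45 in all 3 control libraries, against an SD of 0.12 at Fgf4, and no test was run on the difference between genes. Fgf4 had 89.0 CpG sites per start tile, between the 94.0 of Fgf3 and the 76.0 of Fgf15. In the first day 8 control its start tiles held 51 reads, where Fgf3 held 614 and Fgf15 584.

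**Figure D2:**
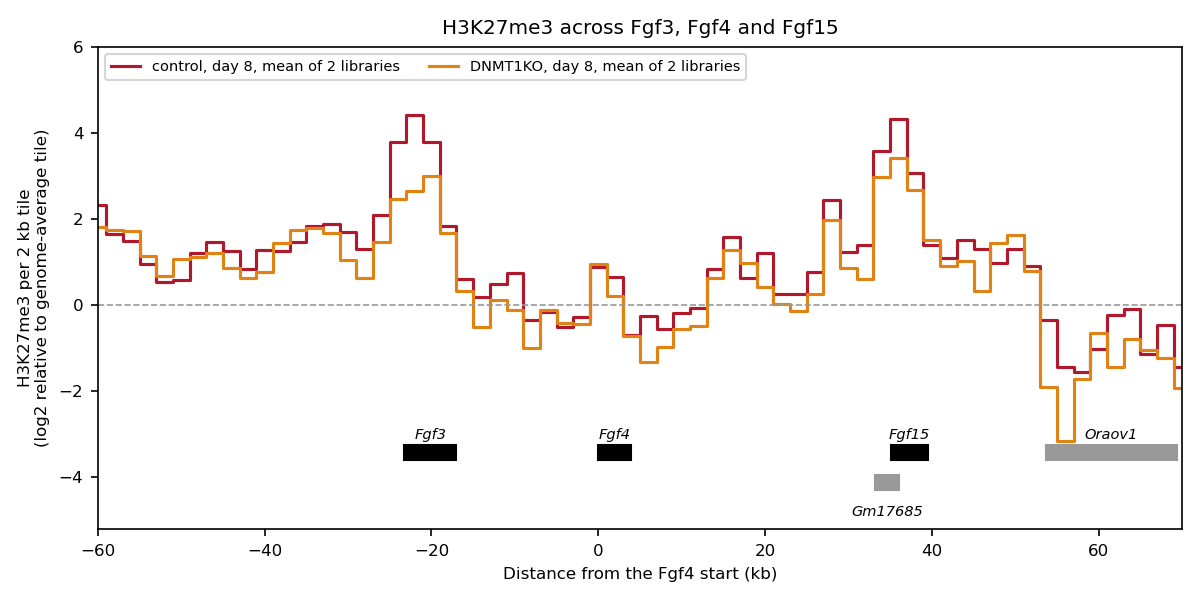
H3K27me3 per 2 kb tile along 130 kb around the Fgf4 start (x axis, kb; genes as boxes), as log2 relative to the genome-average tile, mean of the 2 control and of the 2 DNMT1KO libraries of day 8. Peaks stand over Fgf3 and Fgf15, while the tiles of Fgf4 stay near the genome average, and the control line lies above the DNMT1KO line over both peaks.

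The other genes of interest for early lineages carried the mark. Fgf5, a ligand of the primed epiblast, reached 3.51, 4.09 and 3.49 in the start tiles, and Wnt3, needed for the primitive streak, gave 2.96, 3.34 and 2.84 over its window. Fgf17, of the Fgf8 subfamily, had 2.66, 2.83 and 2.67 at its start. Fgf2, a heparin-binding growth factor often added to cultures, was low at its start, at 1.11, 1.02 and 0.50, and its window overlaps 4 other annotated genes.

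The mark formed stretches of differing length around the starts. Counting neighbouring tiles at or above 4-fold the library average, 29 of 39 members had such a stretch in all 3 controls and 8 had none, namely Fgf1, Fgf2, Fgf4, Fgf7, Fgf10, Fgf20, Fgf22 and Fgf23. The longest was at Wnt10a, with 28, 32 and 28 kb, followed by Wnt1 with 24, 26 and 24 kb and Wnt5a with 22 kb in each library. Wnt10a lies 6197 bp beyond Wnt6 on the same strand, and the stretch at Wnt6 was another run of 12 to 14 kb. Wnt10b and Wnt1 start 11707 bp apart and point away from each other, and the run at Wnt10b was 16 kb long in each control. The remaining close pairs, Wnt3a with Wnt9a, Wnt9b with Wnt3 and Fgf6 with Fgf23, shared no tile.

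**Figure D3:**
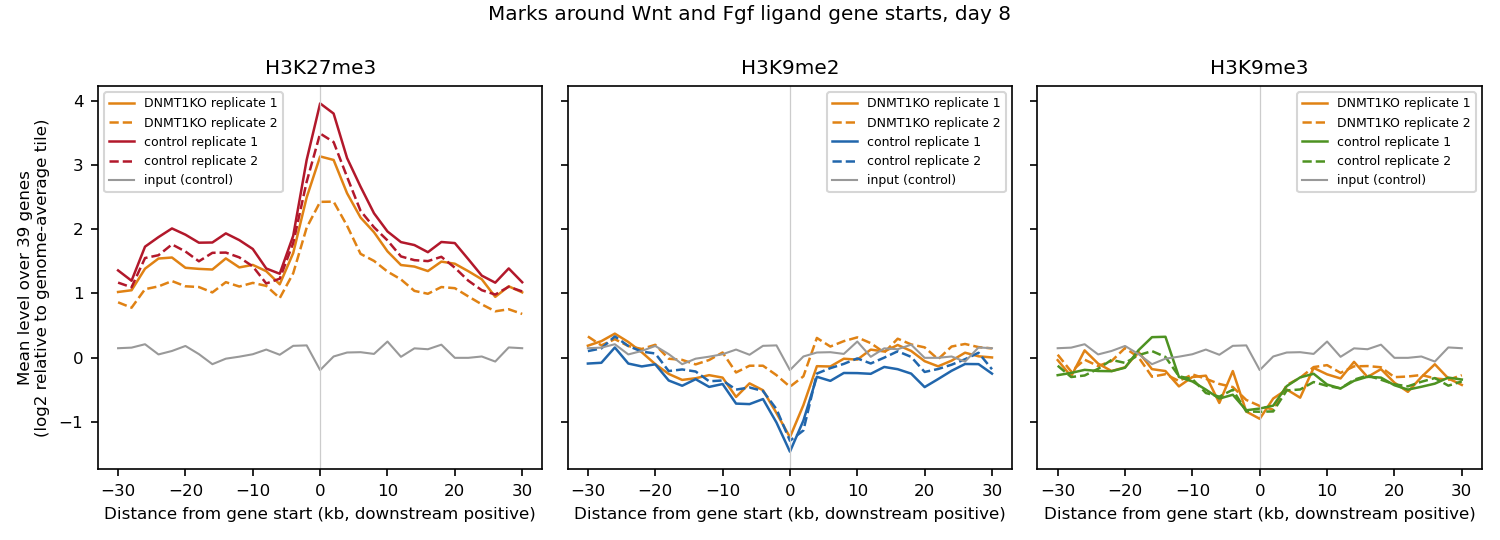
Mean level over the 39 genes by distance from the gene start (x axis, kb, gene direction to the right), as log2 relative to the genome-average tile, for each mark in the 4 day 8 libraries and the control input. H3K27me3 peaks at the start tile at 3.96 and 3.49 in the controls and 3.13 and 2.43 in the DNMT1KO libraries, while H3K9me2 and H3K9me3 dip there.

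H3K9me2 and H3K9me3 were near or below the genome average at these genes. Control medians over the members were -0.31 and -0.51, next to -0.42 and -0.47 over all genes, and no member exceeded 2-fold in either mark. The highest H3K9me2 was 0.60 ± 0.08 at Fgf14, 0.59 ± 0.07 at Wnt2 and 0.53 ± 0.16 at Wnt7a, and the same 3 genes were highest for H3K9me3 at 0.43, 0.16 and 0.17. Fgf11, an intracellular member with much H3K27me3, was lowest for both, at -2.98 ± 0.37 and -1.24 ± 0.25, from as few as 6 reads in a library. Fgf4 had -1.14 ± 0.51 for H3K9me2 and -0.88 ± 0.34 for H3K9me3. Its H3K27me3 level of 0.31 was low among the ligand genes but at the 63.9th percentile of all genes.

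The 2 H3K9 marks differed at 16 members over the gene window, with H3K9me2 higher at 10 and lower at 6, where 20.6% of all genes were called higher and 23.2% lower. The lower group (Wnt10a, Fgf22, Fgf11, Fgf17, Wnt10b and Wnt1) spanned 3 to 8 tiles each, with -1.74 ± 0.20 at Fgf11 (limma adjusted p = 0.000531) and -1.24 ± 0.12 at Wnt1 (adjusted p = 0.000276). This split depended on the reading. With each library centred on its 100 kb windows it was 4 higher and 8 lower, beside 8.21% and 28.9% of all genes. In the start tiles it was 0 higher and 20 lower, beside 4.35% and 25.9%. Without the day 4 controls 2 were higher and 4 lower, where 16.0% of all genes were called in either direction, and without day 8 replicate 2 it was 3 and 5, where 22.0% were called.

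Upon Dnmt1 deletion, no member changed past the test over its gene window at day 8 for any mark in the main fit, which has no replicate block. For H3K27me3 0 of 39 members and 0.0% of all genes were called, for H3K9me2 0 of 39 and 0.478%, and for H3K9me3 0 of 39 and 0.0%. Limma-voom called 0 members for the first and second of these marks and 3 for H3K9me3 (Wnt3 and Wnt9b higher, 5.13% of members beside 6.57% of all genes, and Fgf14 lower, 2.56% beside 2.0%). With replicate number as a block at day 8, 22 members (56.4%) were called lower for H3K27me3, beside 17.4% of all genes. With all 6 libraries and the pair as block, 0 members were called. The day 8 libraries share only a replicate number, so the result for H3K27me3 depends on the fit. In the main fit, at an unadjusted p under 0.05, H3K27me3 was lower at 7 members (17.9%), beside 18.0% of all genes, and higher at none, beside 4.5%. The 7 were Wnt6, Wnt10a, Wnt4, Fgf3, Fgf22, Fgf11 and Fgf17. The members' median change was -0.37 and that of all genes -0.15, and both DNMT1KO libraries lay below both controls at 21 of 39 members (53.8%) and at 41.1% of all genes. A lower level in a population of cells cannot be told apart from fewer cells that carry the mark.

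The widest H3K27me3 differences over the window were at Wnt10a, Fgf3 and Wnt6. Wnt10a gave 4.31 and 3.97 in the controls and 3.23 and 2.57 in the DNMT1KO libraries, a difference of -1.24 ± 0.41 (SE, limma adjusted p = 0.172). Fgf3 gave 3.37 and 3.18 against 2.46 and 1.81 (-1.14 ± 0.32, adjusted p = 0.142), and Wnt6 gave 3.72 and 3.29 against 2.71 and 2.03 (-1.14 ± 0.36, adjusted p = 0.158). The groups did not overlap at any of the 3 genes, which were picked by the size of this difference. Both DNMT1KO libraries lay below both controls at 41.1% of all genes. In the other direction Fgf7 gave -0.45 and -0.24 against -0.25 and 0.09, and Fgf1 gave 0.41 and 0.53 against 0.76 and 0.61, neither past the test.

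Read in the start tiles alone, H3K27me3 fell at 4 of 39 members (10.3%) and rose at none, where 13.3% of all genes were called lower and 0.712% higher. Fgf20, an inner ear and kidney ligand, had levels of 0.48 and 0.20 in the controls and -1.28 and -2.36 in the DNMT1KO libraries, from 43, 38, 12 and 7 reads, and fell by 2.16 ± 0.35 (limma adjusted p = 2.14e-07). This SE rests on the spread at genes of similar level and may understate counting error at the few reads of Fgf20. The annotated gene Efha2 overlaps the Fgf20 window. Fgf18, a skeletal ligand, had 2.55 and 2.09 against 0.79 and -0.11 (-1.98 ± 0.35, adjusted p = 3.12e-06). Wnt4, of kidney and gonad, had 4.15 and 3.34 against 2.66 and 1.58 (-1.63 ± 0.47, adjusted p = 0.00812), and Fgf3 had 4.29 and 3.96 against 2.89 and 2.15 (-1.61 ± 0.53, adjusted p = 0.023). The controls and the DNMT1KO libraries did not overlap at any of the 4, which were named for this same difference. Both DNMT1KO libraries lay below both controls at 45.8% of all genes in the start tiles. Fgf20 was called in each of the 4 readings that left out 1 day 8 library, Fgf18 in all but the one without control replicate 1 (adjusted p = 0.0501), and Wnt4 and Fgf3 in the one without DNMT1KO replicate 1.

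Over all 39 starts the median change was -0.86, beside -0.38 over 20366 genes, and both DNMT1KO libraries lay below both controls at 28 members (71.8%) and at 45.8% of all genes. At the highest starts both DNMT1KO libraries were lower than both controls, though not past the test. Wnt3a went from 5.08 and 4.64 to 4.08 and 3.38, Wnt10b from 5.15 and 4.50 to 4.30 and 3.39, and Fgf8 from 4.79 and 4.39 to 4.11 and 3.34. Each of these still stood more than 8-fold above the genome average in both DNMT1KO libraries, as did Wnt1 at 4.15 and 3.45. Wnt7b, with a control mean of 4.55, went from 4.91 and 4.33 to 3.89 and 2.73, under 8-fold in the second DNMT1KO library. Wnt8b, a forebrain ligand, was higher in both DNMT1KO libraries, at 2.45 and 2.21 against 2.04 and 1.85, as was Fgf7, at 0.52 and 0.67 against 0.05 and 0.20, neither past the test.

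**Figure D4:**
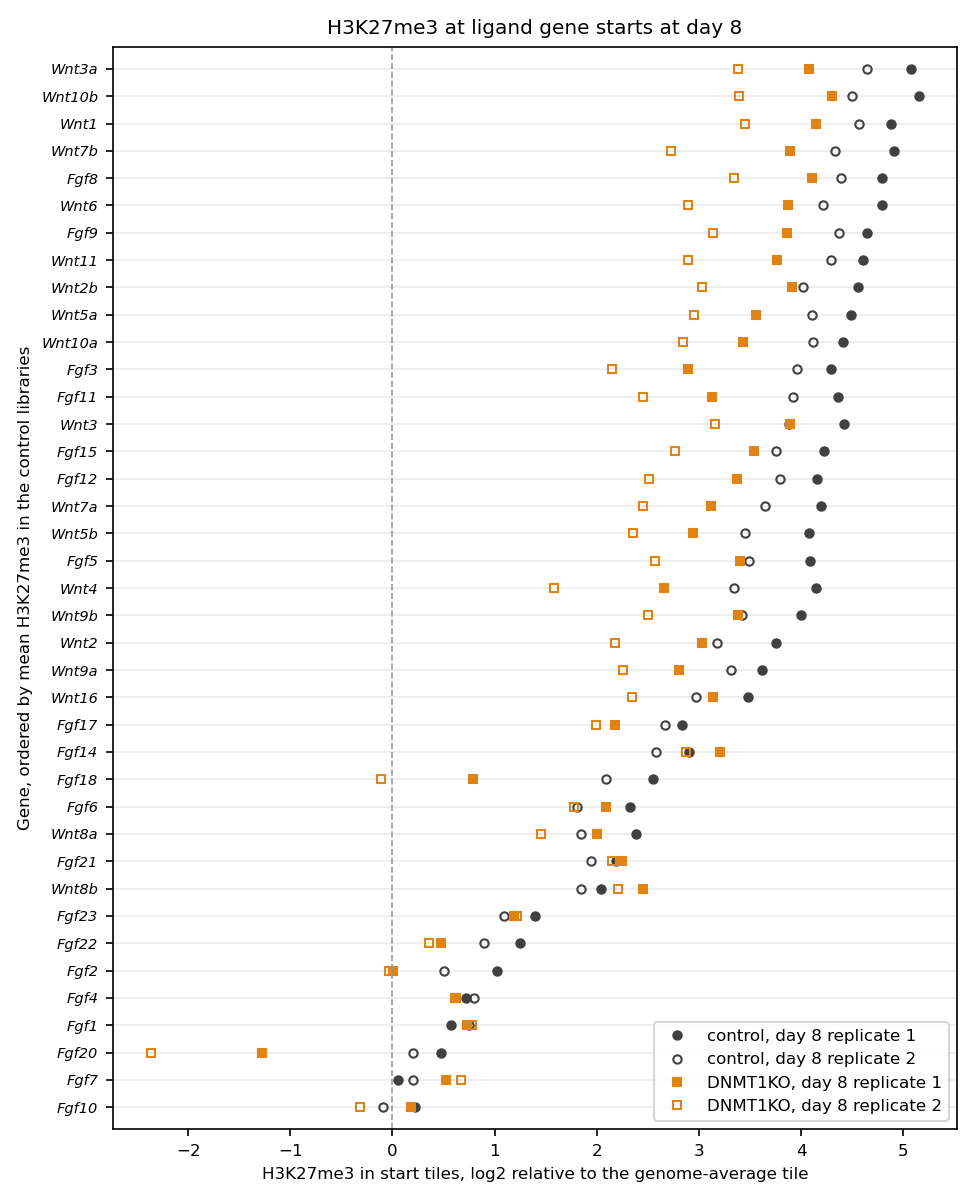
H3K27me3 within 1 kb of the start of each gene in the 2 control (circles) and 2 DNMT1KO (squares) libraries of day 8, as log2 relative to the genome-average tile, ordered by control level. The DNMT1KO points lie left of the control points over the upper, strongly marked genes and close to them at Fgf4, and they lie farthest left at Fgf20 and Fgf18.

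Ligand genes were set beside other genes of the same H3K27me3 level. Grouped by the day 4 control, which takes no part in the day 8 contrast, the 12 members at 3 to 4 had a median change of -0.99 beside -0.91 for 1188 other genes, and the 11 members at 4 or more had -1.04 beside -1.02 for 364 other genes. The 5 members at 2 to 3 had -0.13 beside -0.72 for 2028 other genes, with medians of 35.5 and 55.0 CpG sites per start tile. The change also followed the CpG content of the start. Over the 39 members, which share their libraries, Pearson's r between CpG sites per start tile and change was -0.72 and Spearman's rho -0.77, and over 20366 genes they were -0.62 and -0.64. Of the members with 80 or more CpG sites per tile, all 16 were lower, as were 97.4% of 2533 other genes. The median change of these members was -1.12 beside -1.04 for the other genes, whose own median control level was 1.35. The 9 members under 40 sites had a median change of -0.04.

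A reading that takes out each library's dependence on GC content in the start tiles, added after seeing the data, reduced the members' median change from -0.86 to -0.18 and that of all genes from -0.38 to -0.09. Fgf20 (-1.78 ± 0.34, limma adjusted p = 0.0106) and Fgf18 (-1.12 ± 0.29, adjusted p = 0.0322) were still called, while Wnt4 at -0.28 and Fgf3 at -0.42 were not. The part of GC content in the fall at these starts, beyond these values, was not tested.

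Fgf4 changed less than most CpG-rich starts. Its start tiles gave 0.72 and 0.80 in the controls and 0.61 and 0.62 in the DNMT1KO libraries, a difference of -0.14 ± 0.33 (limma adjusted p = 0.807), from 51, 58, 46 and 60 reads. Among 1576 other genes with 80 to 100 CpG sites per start tile the median change was -0.95, and 5.39% had a higher change than Fgf4. Among the 772 of them whose control level was under 1, as at Fgf4, the median was -0.78 and 10.8% had a higher change. With the GC correction the difference at Fgf4 was 0.72 ± 0.32 (adjusted p = 0.179). These gene sets were drawn after the values were seen and carry no test. Fgf3 and Fgf15 exceeded Fgf4 by 1.54 to 3.16 over the gene window in the day 8 DNMT1KO libraries.

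**Figure D5:**
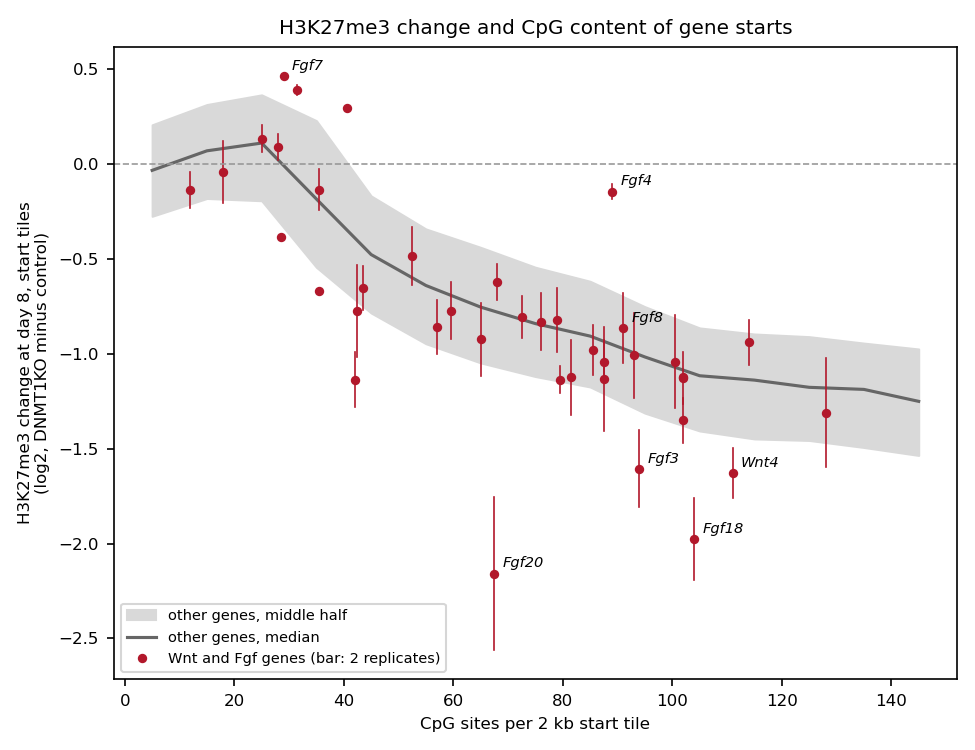
Change of H3K27me3 in the start tiles at day 8 (log2, DNMT1KO minus control) against the CpG sites per 2 kb start tile, for the 39 genes (points, bar between the 2 replicates) and the other genes (line, median; band, middle 50% of genes, in bins of 10 sites). Most members lie along the median line, Fgf20 and Fgf18 lie below it and Fgf4 lies above it.

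At day 4, with 1 library per arm and the spread taken from the day 8 pairs, no member was called for any mark. Over the window 0.0%, 0.1% and 0.0% of all genes were called for H3K27me3, H3K9me2 and H3K9me3. No member passed at an unadjusted p under 0.05 over the window either, beside 3.19%, 2.46% and 1.78% of all genes. The H3K27me3 median change over the members was -0.08 over the window and -0.22 in the start tiles, beside -0.07 and -0.12 over all genes. Fgf4 went from 0.44 to 0.70, Fgf3 from 3.22 to 2.79 and Fgf20 from 1.62 to 1.61 over the window, and in the start tiles Fgf20 went from 0.46 to -0.19. The day 8 change did not differ past the test from the day 4 change at any member. Over the window 0.0%, 0.0501% and 0.0% of all genes were called for this difference, in the same order of marks. In the start tiles 0.0% of all genes were called for each mark. The H3K27me3 difference there was -1.79 ± 0.61 at Fgf18 (limma adjusted p = 0.636) and -1.50 ± 0.60 at Fgf20 (adjusted p = 0.819). A p past no threshold from a single pair does not show that the days were alike.

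For H3K9me2 the members' median change at day 8 was 0.32, next to 0.29 over all genes, and at an unadjusted p under 0.05 it was higher at 1 member, Wnt4, beside 6.25% of all genes. Wnt4 gave -0.50 and -0.22 in the controls and 0.33 and 0.20 in the DNMT1KO libraries (0.63 ± 0.25, limma adjusted p = 0.368). Wnt16 gave -0.54 and -0.60 against 0.07 and 0.06 (0.64 ± 0.34, adjusted p = 0.625). The second DNMT1KO library stood apart from the first at the starts, where its mean over the members was -0.45, beside -1.24 in the first and -1.47 and -1.30 in the controls. Over the gene window the members' median change was 0.10 without that second library, and -0.13 with the GC correction. In the start tiles, where 20 members passed the read filter, the median change was 0.51, and 0.10 with the GC correction.

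For H3K9me3 the members' median change was 0.13 over the window, beside 0.02 over all genes, and -0.22 in the start tiles. At an unadjusted p under 0.05, 4 members differed (10.3%), beside 15.2% of all genes. Wnt9b gave -0.33 and -0.28 in the controls and 0.34 and 0.12 in the DNMT1KO libraries (0.53 ± 0.13, limma adjusted p = 0.237), and its neighbour Wnt3, which starts 24329 bp away, gave 0.06 and -0.04 against 0.44 and 0.44 (0.43 ± 0.11, adjusted p = 0.241). Fgf6 was higher too, at -0.18 and 0.09 against 0.46 and 0.27, and Wnt6 was lower, at -0.27 and -0.73 against -1.08 and -1.03. The first DNMT1KO library of this mark is the shallow one, and Wnt6 held 16 reads at its lowest.

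Receptors of both pathways and secreted Wnt modulators also had median H3K27me3 levels above the genome average at their starts, though below that of the ligands. Single receptor starts lay below that average, such as Lgr4 at -0.97 and Fgfr2 at -0.99. The lists of components inside the cell had medians below the genome average. In control starts the median H3K27me3 level was 2.48 over 18 Wnt receptors and co-receptors and 3.16 over 17 secreted Wnt modulators. It was 2.46 over the 8 annotated entries of 7 Fgf receptors and co-receptors, beside 3.65 over the ligands. It was -0.23 over 14 intracellular Wnt genes and -1.14 over 15 genes of Fgf signal transduction and feedback. Of these, 2 intracellular Wnt genes stood more than 4-fold above the genome average, Lef1, a transcription factor of the pathway, at 4.12 and Axin2, a feedback inhibitor, at 2.46, both named with their values in view. Over the gene window at day 8 none of these genes was called for any mark. In the start tiles H3K27me3 fell at 9 of 18 Wnt receptors, among them Fzd6 (-1.60, limma adjusted p = 0.00055), Fzd5 (-1.37, adjusted p = 0.00071) and Fzd8 (-1.54, adjusted p = 0.00438). It fell at 2 of 17 modulators, Notum and Sfrp1, at 2 of 14 intracellular Wnt genes, Dvl1 and Axin1, and at 3 of 13 tested Fgf transduction genes, Frs3, Frs2 and Etv5, beside the 13.3% of all genes called lower there. Of the Fgf receptor list, in which Fgfr1 has 2 entries in the annotation, 1 entry of Fgfr1 fell (-1.27, adjusted p = 0.00928). Klb, the co-receptor of Fgf15 and Fgf21, rose to 2.64 and 2.26 in the DNMT1KO libraries from 0.90 and 1.05 in the day 8 controls (1.47 ± 0.37, limma adjusted p = 0.00165). Of all genes, 0.712% were called higher in the start tiles. Lrp6 fell by 0.96 from -0.13 and -0.09 in the day 8 controls (adjusted p = 0.0469), so calls in the start tiles were also made at genes near the genome average. All these start-tile calls were made without GC correction, which cut the genes called there from 2856 to 1275. Values with that correction are not given for these lists.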

How the data were processed

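ChIP-seq reads of H3K27me3, H3K9me2, H3K9me3 and input were aligned by the submitters to NCBIM37 (Bowtie2 2.2.9 in the submitters' processing notes). The deposited table gives log2 values per 2 kb tile, made by the authors as observed over expected reads. The study's methods name 1 kb tiles, and whether duplicate reads were removed is not given in the sources used here. Empty tiles are set to 0.9 read. Whole reads were recovered from the log2 values (100% of low values in every library came out within 0.1 of a whole read) and summed over each gene window. Levels are log2 of reads plus a prior of 0.5 read, divided by the number of tiles and by the library's mean reads per tile; the deposited scale lies 0.37 lower. Samples were grouped by title.

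For each mark, limma 3.58.1 (R 4.3.3) with a trended prior variance was fitted to the 6 libraries by day and genotype, for genes with at least 60 reads, with Benjamini-Hochberg adjustment over all genes tested and a threshold of 0.05. The unit was taken as log2 values, so no count model was used. The marks were compared in the 9 control libraries. Start tiles are those within 1 kb of the annotated start. On simulated data for the H3K27me3 day 8 comparison (22110 genes), 43 of 100 genes changed 2-fold and 100 of 100 changed 4-fold were called, with 6 false calls. For H3K9me3 (22087 genes) the numbers were 10 and 90 of 100, with 1 false call. The simulated reads had the same fixed dispersion at every gene and no shift between replicates beyond depth. These counts therefore need not hold for the real libraries.

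Named genes were Fgf4, Fgf5, Fgf8, Fgf15, Fgf17 and Wnt3, the 3 highest and 3 lowest members per mark in the controls, the 3 largest day 8 changes per mark and direction that had the same sign in both replicates and at least 20 reads in every library, and members past the threshold. Other named genes were picked with their values in view. The members and lists were chosen with earlier results of these data known. Alternatives were other scalings (TMM, 100 kb medians), the mean of deposited tile values, start tiles, no read filter, GC correction in bins of 0.02, limma-voom, no variance trend, a replicate block and leaving out each library. GC correction of the start tiles and leaving out libraries there were chosen after seeing the data. Sequences came from the NCBIM37 genome. One further stretch of sequence is not reported here. Depth was 5669098 to 26181489 reads per ChIP library. Standard errors come from the spread between libraries, moderated toward genes of similar level, and cover no other source of error. They may understate counting error at starts with few reads.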

Additional observations from a re-analysis of the deposited data

How the results depend on the processing

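The 3 contrasts between marks in control cells were called for 38, 36 and 16 members, beside 66.9%, 70.9% and 43.7% of all genes. The contrast of H3K27me3 with H3K9me3 and that with H3K9me2 kept counts within 1.5 times under every alternative run. The count of H3K9me2 against H3K9me3 was 6 without the day 4 replicate and 8 without day 8 replicate 2, beside 16.0% and 22.0% of all genes. That count ranged from 6 to 11 over the libraries left out. With 100 kb centring the median H3K27me3 minus H3K9me2 difference of all genes moved from 0.26 to 0.54. The members higher in H3K27me3 then numbered 38 of 39 against H3K9me3 and 37 against H3K9me2, beside 48.3% and 56.5% of all genes. Differences that turned sign in the start tiles were Fgf7 (0.61 and 0.80 against H3K9me3 and H3K9me2), Fgf12 (5.60) and Fgf14 (3.13) for H3K27me3 minus H3K9me2, and 20 of 39 members for H3K9me2 minus H3K9me3, 7 of which had been called over the window, among them Fgf12 (-0.77), Wnt2 (-0.08) and Wnt7a (-0.96), and with Wnt4 (-0.99) among the uncalled; with centring Fgf12 (0.28) and Fgf14 (0.23) turned for H3K27me3 minus H3K9me2. The Fgf7 call against H3K9me3 was lost without each control replicate, with the replicate block, and in 3 further readings (mean tile values, no variance trend, centring).

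At day 8 the number of members called for H3K27me3 went from 0 to 4 (10.3%) in the start tiles, beside 13.3% of all genes called lower and 0.712% higher. With GC correction it was 2 there, where 1275 of 20366 genes were called. Without each library the changes there were -2.70 to -1.62 at Fgf20, -2.42 to -1.53 at Fgf18, -2.17 to -1.09 at Wnt4 and -1.98 to -1.23 at Fgf3. Day 8 libraries share only a replicate number: deviations of same-numbered libraries correlated at 0.39, 0.25 and 0.10 for H3K27me3, H3K9me2 and H3K9me3. With the replicate block 22 members (56.4%) were called lower for H3K27me3, beside 17.4% of all genes. With GC correction too it was 17, where 4171 of 22110 genes were called in either direction. That fit uses the day 8 libraries, and with all 6 libraries, 1 genotype effect over both days and the pair as replicate block 0 members and 0 genes were called. Members called over the gene window stayed at 0 for each mark without any 1 library, and limma-voom called 3 for H3K9me3 (1 lower, 2 higher, beside 2.0% and 6.57% of all genes). The median member change for H3K27me3 was -0.25 by mean tile values, -0.46 with 100 kb centring, -0.23 with TMM (all genes -0.005 in place of -0.15), -0.22 with GC correction, -0.86 and -0.18 in the start tiles without and with GC correction, and -0.62 to -0.20 without each library. For H3K9me2 it was 0.08 with TMM, -0.13 with GC correction, 0.51 and 0.10 in the start tiles without and with GC correction (20 members), and 0.10 to 0.48 without each library. For H3K9me3 it was -0.22 and -0.10 in the start tiles without and with GC correction, and 0.06 to 0.15 without each library. Why the remaining values moved was not tested. The start tiles of H3K9me2 and H3K9me3 held medians of 9.5 and 14 reads per member and library, which limits those readings, and day 4 rests on 1 library per arm.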
